A study of Mus musculus with 10 samples.

Results

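Nephron development regulators are genes that build the kidney in the embryo. For this account 10 of them were taken by name from the 23276 named genes in the deposited tables: Pax2, Pax8, Lhx1, Emx2, Six2, Sall1, Eya1, Osr1, Ret and Gdnf. All 10 had a row in each of the 3 tables. RNA came from whole kidneys of 10 mice on postnatal day 21. The groups were 3 mice of the genotype Pkhd1Cre; Pkd2 F/F, whose floxed Pkd2 is deleted by the Pkhd1Cre driver (SM), 3 mice with that genotype that were also miR-21null (DM), and 4 wild-type mice (WT). Pkhd1Cre is known to act mainly in the collecting duct, so cells of other segments may keep Pkd2, and the labels do not say whether the wild types carried floxed alleles or the driver. Pkd2 encodes polycystin-2, without which tubules become cystic, and the design asks what differs without it and what differs further without the microRNA miR-21.

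In the embryo the metanephric mesenchyme secretes GDNF, which acts on the RET receptor of the ureteric bud, and the bud branches into the collecting ducts. Mesenchymal cells around the bud tips hold the nephron progenitors, kept by Six2, Sall1, Eya1 and Osr1, and these turn into tubules under WNT signals. Pax2, Pax8, Lhx1 and Emx2 act in the bud, in forming nephrons or in both. In mice the progenitors are used up within days of birth, so a kidney at weaning no longer makes nephrons.

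None of the 10 genes passed the threshold in any comparison, an adjusted p under 0.05 by the likelihood ratio test of edgeR in the authors' deposited tables. In SM over WT 0 of 10 passed, where 14.0% of all rows did, and 1 had an unadjusted p under 0.05, as did 23.4% of all rows. DM over WT gave 0 of 10, where 13.5% of all rows passed, and 1 gene with an unadjusted p under 0.05, as had 23.3% of all rows. DM over SM gave 0 of 10, where 0.0789% of rows passed, and 0 genes with an unadjusted p under 0.05, as had 3.75% of rows. At such background shares a count of 0 among 10 genes does not set them apart from other rows. The median log2 fold change of the 10 genes, from the authors' deposited tables, was -0.07 in SM over WT, -0.37 in DM over WT and -0.08 in DM over SM, beside a median of 0 for all rows in each. Both comparisons with WT use the same 4 wild types, so like values in them are not independent.

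The tables hold no value per mouse, so levels are given per group and without a spread. Each was derived, in counts scaled to library size (CPM), from the deposited average over all mice and the deposited fold changes. The error of a difference is the standard error that the test implies (SE), and the 95% interval is the difference plus or minus 1.96 times that error. Library depth is unknown. In whole tissue, fewer cells of a type and less RNA per cell cannot be told apart.

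**Figure D1:**
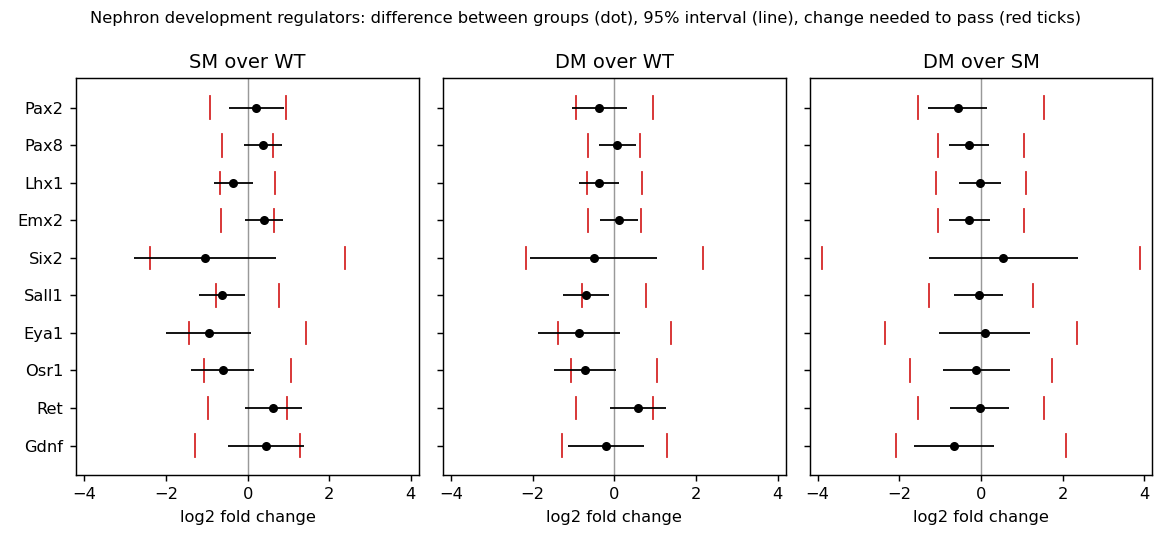
Log2 fold change of the 10 regulators in each comparison (x axis) with its 95% interval, and red ticks at the smallest change that would have passed the threshold at the SE of that gene. No dot lies beyond its ticks, which are widest for Six2, at 2.39 on either side in SM over WT, from an SE that is not reliable at its low level.

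The paired-box factors Pax2 and Pax8 together specify the kidney lineage in the mouse embryo and stay active in some adult tubules. Pax8 was at a derived level of 154 CPM in SM, 126 CPM in DM and 119 CPM in WT kidneys. The authors' deposited table of SM over WT gave it a log2 fold change of 0.37 (SE 0.23, interval -0.09 to 0.83, adjusted p = 0.364), and that of DM over WT gave 0.08 (SE 0.23, interval -0.38 to 0.54). As ratios the intervals run from 0.943 to 1.78 for SM over WT and from 0.766 to 1.45 for DM over WT. A change of 1.55-fold in SM over WT would have passed for Pax8.

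Pax2 was at 77.8 CPM in SM, 52.2 CPM in DM and 67.2 CPM in WT kidneys, so the highest and the lowest level were both in Pkd2-deleted groups. In the authors' deposited tables it stood at 0.21 in SM over WT (SE 0.34, adjusted p = 0.883) and at -0.37 in DM over WT (SE 0.35, adjusted p = 0.63), both as log2 fold changes. The cystic groups differed by -0.58 in DM over SM (SE 0.37, interval -1.30 to 0.15), which did not pass in the authors' deposited table either (adjusted p = 1). Pax2 was less precise than most genes of its level. Its SE in SM over WT lay at the 97.9th percentile of the 2574 rows within 0.5 log2 units of its average, whose median SE was 0.202. A change of 1.91-fold was needed for it to pass there.

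Lhx1, a LIM-homeobox factor needed for the ureteric bud and the first nephron vesicles, was at 20.2 CPM in SM, 19.8 CPM in DM and 25.7 CPM in WT kidneys. Both cystic groups were below WT, by a log2 fold change of -0.35 in SM (SE 0.25, adjusted p = 0.456) and -0.38 in DM (SE 0.25, adjusted p = 0.393) by the authors' deposited tables, and neither difference passed. Emx2, a homeobox factor of the ureteric bud, was at 51.6 CPM in SM, 42.3 CPM in DM and 39.3 CPM in WT kidneys. It stood at 0.39 in SM over WT (SE 0.24, adjusted p = 0.336) and 0.10 in DM over WT (SE 0.24, adjusted p = 0.961) on the log2 scale of the authors' deposited tables. Changes of 1.56-fold for Emx2 and 1.59-fold for Lhx1 would have passed in either comparison with WT.

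Emx2 lies on chromosome 19 at 59458372 to 59465357 (GRCm38, plus strand), and its first bases overlap Emx2os, an antisense transcript at 59425104 to 59458635. No source used here says whether reads were counted by strand, so it is not known to which row, if any, reads of the shared bases went. Emx2os, with an average of 9.24 CPM, stood at 0.18 in SM over WT (SE 0.25, adjusted p = 0.816) and 0.21 in DM over WT (SE 0.25, adjusted p = 0.734) on the log2 scale of the authors' deposited tables. The antisense rows that overlap Pax2 (1700039E22Rik) and Osr1 (1700022H16Rik) averaged 0.0568 and 0.0514 CPM, near or at the lowest value in the tables.

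**Figure D2:**
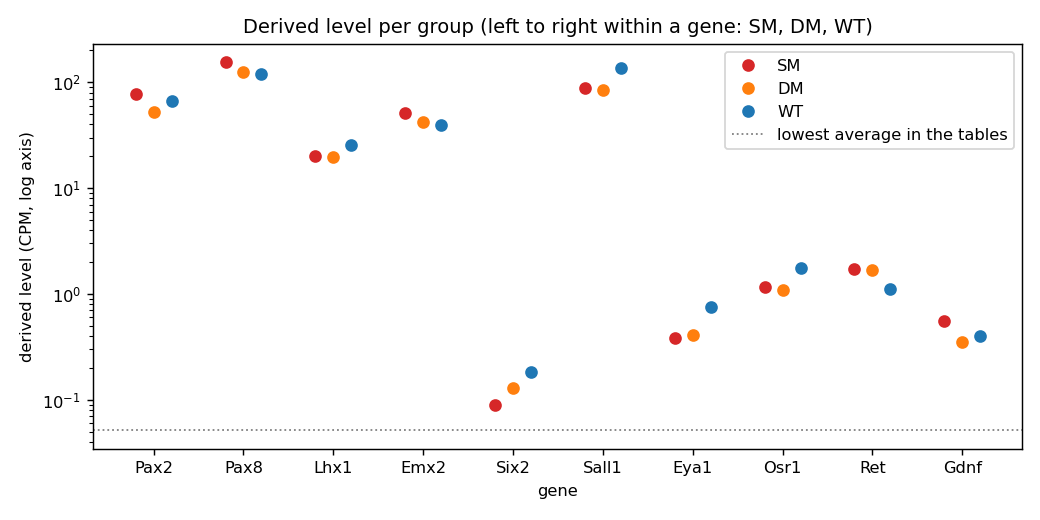
Derived level in CPM (log axis) of each regulator in SM, DM and WT kidneys, 1 dot a group, with no error since the tables hold no value per mouse. Pax2, Pax8, Lhx1, Emx2 and Sall1 lie between 19.8 and 154 CPM, and Six2, Eya1, Osr1, Ret and Gdnf lie below 2 CPM.

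Among the progenitor factors Sall1 came closest to the threshold. Sall1, a zinc finger factor of nephron progenitors, was at 88.9 CPM in SM, 85.4 CPM in DM and 138 CPM in WT kidneys. SM over WT gave a log2 fold change of -0.63 (SE 0.29, interval -1.20 to -0.06, unadjusted p = 0.0296, adjusted p = 0.148) by the authors' deposited table. DM over WT gave -0.69 (SE 0.29, interval -1.25 to -0.12, unadjusted p = 0.0176, adjusted p = 0.102) by the authors' deposited table. Sall1 was the gene behind the single unadjusted p under 0.05 in each comparison with WT, and neither passed after adjustment. The cystic groups differed by -0.06 in DM over SM (SE 0.30, interval -0.66 to 0.54) by the authors' deposited table. Like Pax2 it was less precise than most rows of its level, with an SE at the 93.2nd percentile of 1792 rows in SM over WT.

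Six2, Eya1 and Osr1 were scarce at this age. Six2, the factor that holds nephron progenitors undifferentiated, was at 0.0885 CPM in SM, 0.129 CPM in DM and 0.184 CPM in WT kidneys. The lowest average of any row is 0.0514 CPM, where 3888 rows stand, and the SE is not reliable this close to it. Six2 had log2 fold changes of -1.05 in SM over WT (SE 0.89, interval -2.79 to 0.68) and -0.51 in DM over WT (SE 0.80, interval -2.07 to 1.06) by the authors' deposited tables. At this depth no statement can be made about a change in Six2.

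Eya1, a phosphatase and co-activator that works with Six2-family factors, was at 0.385 CPM in SM, 0.409 CPM in DM and 0.746 CPM in WT kidneys. It stood at -0.96 in SM over WT (SE 0.53, adjusted p = 0.272) and -0.87 in DM over WT (SE 0.51, adjusted p = 0.319) on the log2 scale of the authors' deposited tables. Osr1, a zinc finger factor of the earliest renal mesenchyme, was at 1.17 CPM in SM, 1.08 CPM in DM and 1.77 CPM in WT kidneys. Its values were -0.61 in SM over WT (SE 0.39, adjusted p = 0.393) and -0.72 in DM over WT (SE 0.39, adjusted p = 0.256) on the log2 scale of the authors' deposited tables. Sall1, Eya1 and Osr1 had values below 0 in both comparisons with WT, and none passed. Of all 30431 rows, 13787 were below 0 in SM over WT and 13592 in DM over WT. Six2 is not counted here because of its level.

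Ret, the receptor tyrosine kinase of the ureteric bud, was at 1.72 CPM in SM, 1.68 CPM in DM and 1.11 CPM in WT kidneys. By the authors' deposited tables its log2 fold change was 0.63 in SM over WT (SE 0.36, interval -0.07 to 1.32, adjusted p = 0.289) and 0.59 in DM over WT (SE 0.35, interval -0.09 to 1.27, adjusted p = 0.322). Gdnf, its ligand, was at 0.553 CPM in SM, 0.351 CPM in DM and 0.402 CPM in WT kidneys. By the authors' deposited tables Gdnf stood at 0.46 in SM over WT (SE 0.48, adjusted p = 0.677) and -0.20 in DM over WT (SE 0.47, adjusted p = 0.973) on the log2 scale. Neither passed, and it would have taken 1.94-fold for Ret and 2.43-fold for Gdnf to pass in SM over WT. Some neurons and adrenal medulla cells also express Ret, and of 12 markers of these cells, 8 of which averaged below 1 CPM, 4 rose in SM and 4 in DM over WT by the authors' deposited tables. Their summed derived level was 13.9 CPM in SM, 12.6 CPM in DM and 6.31 CPM in WT kidneys, and their part in the Ret values was not tested.

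Per kilobase of merged annotated exons, the derived level in SM kidneys was highest for Pax8, at 25.5 CPM, followed by Emx2 at 17.2, Sall1 at 16.9, Pax2 at 14.4 and Lhx1 at 4.96 CPM. In WT kidneys Sall1 came first on that scale, at 26.1 CPM per kilobase, followed by Pax8 at 19.7, Emx2 at 13.1, Pax2 at 12.4 and Lhx1 at 6.31 CPM per kilobase. The remaining 5 genes lay between 0.0417 (Six2) and 0.565 (Osr1) CPM per kilobase in SM, and between 0.0867 (Six2) and 0.859 (Osr1) CPM per kilobase in WT. The lengths are those of annotated exons, and the exons that were counted are not given and may differ. Without values per mouse the order of neighbours could not be tested.

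**Figure D3:**
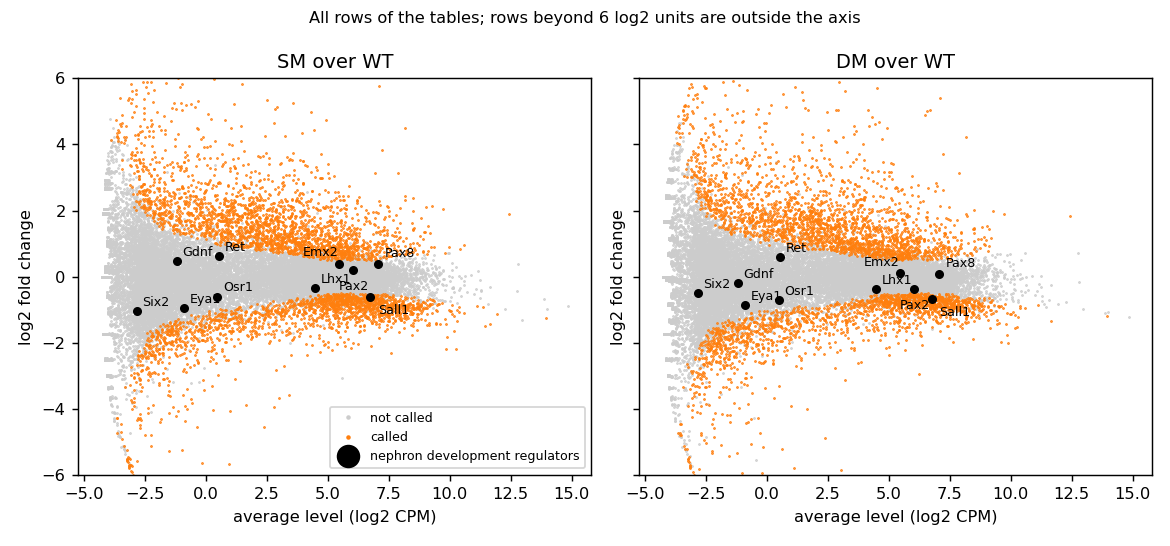
Log2 fold change (y axis) and average level in log2 CPM (x axis) of all rows in SM over WT and DM over WT, with the 10 regulators in black. Every regulator was among the rows that did not pass (grey), and Sall1 lies where rows that passed (orange) and rows that did not meet.

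DM over SM is the comparison that differs in miR-21 among cystic kidneys. The authors' deposited table gave the 10 genes log2 fold changes from -0.66 for Gdnf (SE 0.50) to 0.55 for Six2 (SE 0.93), 8 below 0 and 2 above, each with an adjusted p = 1. Six2 is 1 of the 2 above 0, and its level is too low for its value to be read. Of all 30431 rows, 12873 were below 0 and 13368 above 0 in DM over SM. In all 24 of 30431 rows passed, and for Pax8, which had the smallest SE of the 10, at least 2.07-fold was needed. The interval for Pax8 was a DM over SM ratio of 0.578 to 1.14, that for Emx2 was 0.58 to 1.16, and that for Lhx1 was 0.685 to 1.40.

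MicroRNAs lower their targets by pairing of the seed with 3′ UTRs. The sequence of miR-21 and the single matching site among the 10 genes are shown because DM kidneys lack this microRNA, with its seed and the word paired to it in capitals (miRNA from RefSeq, GRCm38.p6, chr11:86584120-86584141, minus strand, and site from the GENCODE M21 transcript):
mmu-miR-21a-5p: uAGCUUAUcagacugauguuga
Osr1 site: cccctgaccatATAAGCTtgtaaagtctt
The word ATAAGCT stood at base 464 of the 875-base 3′ UTR of Osr1, and the longest annotated 3′ UTRs of the other 9 genes did not hold it. Among 12825 coding genes that averaged 1 CPM or more, 8.12% held it. Osr1 was at 1.08 CPM in DM and 1.17 CPM in SM kidneys, and DM over SM was -0.11 on the log2 scale (SE 0.42, adjusted p = 1) by the authors' deposited table. The interval allows a DM over SM ratio of 0.524 to 1.64. A match is a description of the letters and not a shown site of action.

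Lists of other genes of the same pathways or gene families held 94 genes, 69 of which averaged 1 CPM or more. Of the 94, 12 were higher and 5 lower in SM over WT, and 9 higher and 6 lower in DM over WT, by the authors' deposited tables. Of all rows 7.87% were higher and 6.09% lower in SM over WT, and 7.55% were higher and 5.92% lower in DM over WT. Rows averaging 1 CPM or more were called more often. Of 15135 such rows, 1840 were higher and 1433 lower in SM over WT, and 1711 were higher and 1291 lower in DM over WT. Both backgrounds stand beside the list and marker counts below, and no list was tested against them. In DM over SM 0 of the 94 passed the test of edgeR, and 2 had an unadjusted p under 0.05, the co-receptor gene Gfra2 and the stromal gene Meis2, both named after their values were seen. Against an F distribution with 7 residual degrees of freedom, a more cautious reference, the 94 genes gave 3 calls in SM over WT and 2 in DM over WT.

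**Figure D4:**
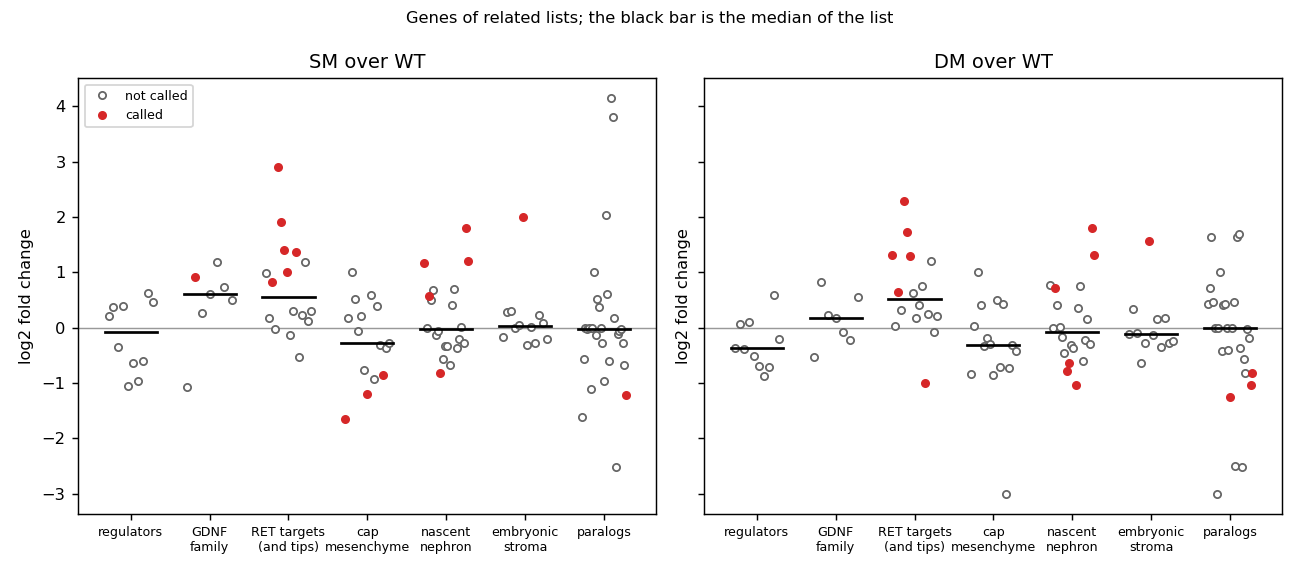
Log2 fold change (y axis) of the 10 regulators and of 6 related lists in SM over WT and DM over WT. Filled red dots passed the threshold, open dots did not, and black bars are medians. In SM over WT the median was 0.56 for the list of RET target and ureteric tip genes, which also holds Robo2 and Slit2. It was -0.28 for cap mesenchyme genes there.

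Of 16 genes listed for RET targets and ureteric tips, 6 rose and 0 fell in SM over WT by the authors' deposited tables. In DM over WT 5 rose and 1 fell by the authors' deposited tables. The gene that fell was Robo2, which acts upstream of RET and is not a RET target. Against the F distribution 1 of the 6 calls was left in SM over WT and 0 of 6 in DM over WT. The list median was 0.56 in SM over WT and 0.52 in DM over WT. Sox8 and Sox9, which act downstream of RET in branching, rose by 1.91 (SE 0.41) and 1.40 (SE 0.42) in SM over WT by the authors' deposited table. They also rose in DM over WT, by 1.72 (SE 0.40) for Sox8 and 1.29 (SE 0.42) for Sox9, in the authors' deposited table. Wnt9b, the signal of the ureteric bud that induces nephrons, rose by 1.37 in SM over WT (SE 0.37, adjusted p = 0.00292) and stood at 0.76 in DM over WT (SE 0.37, adjusted p = 0.181) by the authors' deposited tables. For Wnt9b the difference between the cystic groups, -0.61 in DM over SM (SE 0.40), did not pass in the authors' deposited table.

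Gata3, a zinc finger factor of the ureteric duct, was at 70.4 CPM in SM, 54.2 CPM in DM and 35.1 CPM in WT kidneys, and rose in SM over WT (adjusted p = 0.0142) by the authors' deposited table but did not pass in DM over WT (adjusted p = 0.204). Etv4, a transcription factor induced by RET, rose by 1.32 in DM over WT (SE 0.40, adjusted p = 0.0105) and stood at 0.99 in SM over WT (SE 0.41, adjusted p = 0.0902) by the authors' deposited tables. In each comparison with WT 10 of the 16 genes did not pass, among them Etv5, Wnt11 and Spry2. These stood at 0.17 (SE 0.25), -0.02 (SE 0.36) and 0.29 (SE 0.21) in SM over WT. In DM over WT they stood at 0.03 (SE 0.25), 0.32 (SE 0.35) and 0.21 (SE 0.21). Spry1, an inhibitor of RET signalling, rose by 0.82 in SM over WT (SE 0.18) and 0.65 in DM over WT (SE 0.18) by the authors' deposited tables. Robo2, a guidance receptor that restricts where Gdnf is expressed, fell by 0.99 on the log2 scale in DM over WT (SE 0.24, adjusted p = 7.28e-04) and stood at -0.54 in SM over WT (SE 0.24, adjusted p = 0.124) by the authors' deposited tables. The cystic groups were not shown to differ in Robo2, at -0.46 in DM over SM (SE 0.25, adjusted p = 1) by the authors' deposited table. Slit2, the ROBO2 ligand, did not pass, at 0.23 in SM over WT and 0.25 in DM over WT by the authors' deposited tables, nor did Dusp6, a phosphatase gene of the same list, at -0.13 and 0.17.

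The relatives of GDNF and its co-receptors gave 1 call among 7 in SM over WT and 0 in DM over WT by the authors' deposited tables, where 1 of the 7 had an unadjusted p under 0.05. That call was Artn, a GDNF-family ligand, which rose by 0.91 in SM over WT (SE 0.33, adjusted p = 0.0445) by the authors' deposited table; its unadjusted p in DM over WT was 0.0121. For SM over WT this list gave 0 calls against the F distribution and 2 when p-values were adjusted over rows averaging 1 CPM or more. Gfra2 and the ligand Nrtn, the most abundant of the others, stood at 1.18 (SE 0.45, adjusted p = 0.0596) and -1.07 (SE 0.43, adjusted p = 0.0785) in SM over WT by the authors' deposited table.

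In the embryo cap mesenchyme genes mark the same progenitors as Six2, Sall1, Eya1 and Osr1. Those progenitors are used up within days of birth, so on day 21 these rows do not measure them. Wt1 of this list is also among the podocyte markers. Of the 15 cap mesenchyme genes, 3 fell and 0 rose in SM over WT by the authors' deposited tables. In DM over WT 0 passed the test of edgeR, and 5 had an unadjusted p under 0.05 by it. These were Cited1, Crym and Tmem100, with values below 0, and Hoxa11 and Hoxd11, with values above 0. Against the F distribution the 3 calls in SM over WT became 0, and adjusted over rows averaging 1 CPM or more DM over WT had 2 calls, so the counts of the cystic groups do not show a difference between them. Cited1, a transcriptional co-regulator of early progenitors, was at 1.27 CPM in SM, 2.23 CPM in DM and 3.98 CPM in WT kidneys, and fell by 1.65 on the log2 scale in SM over WT (SE 0.42, adjusted p = 0.00153) by the authors' deposited table. Crym fell by 1.21 (SE 0.33) and Tmem100 fell by 0.86 (SE 0.28) in SM over WT, while in DM over WT their adjusted p were 0.0542 and 0.054 by the authors' deposited tables. The difference between the cystic groups did not pass for Cited1, at 0.81 in DM over SM (SE 0.44), for Crym at 0.34 (SE 0.34) or for Tmem100 at 0.12 (SE 0.29) in the authors' deposited table. Gas1 and Itga8 did not pass, at -0.37 (SE 0.23) and 0.21 (SE 0.21) in SM over WT by the authors' deposited table.

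Of 20 genes of the nascent nephron, the stage after the progenitors, 4 rose and 1 fell in SM over WT, and 3 rose and 3 fell in DM over WT, by the authors' deposited tables. Against the F distribution 1 call was left in SM over WT and 1 in DM over WT. Sox4, a factor of differentiating epithelium, was at 130 CPM in SM, 130 CPM in DM and 37.3 CPM in WT kidneys, and rose by 1.81 on the log2 scale in SM over WT (SE 0.22, adjusted p = 3.6e-14) by the authors' deposited table. Its relative Sox11 rose by 1.20 (SE 0.31) there, in the authors' deposited table. Wnt4, the inducer of the mesenchyme to epithelium transition, rose by 1.16 in SM over WT (SE 0.36, adjusted p = 0.0134) and stood at 0.77 in DM over WT (SE 0.36, adjusted p = 0.165) by the authors' deposited tables. Jag1, a Notch ligand, rose by 0.57 in SM over WT (SE 0.19) and 0.71 in DM over WT (SE 0.19) by the authors' deposited tables. Hnf4a, a proximal tubule factor, fell by 0.82 in SM over WT (SE 0.26) and by 0.78 in DM over WT (SE 0.25) by the authors' deposited tables. The others that fell in DM over WT were Osr2, the paralog of Osr1, at -1.03 (SE 0.27, adjusted p = 0.00205) and Irx1, a homeobox factor of the mid nephron, at -0.63 (SE 0.23, adjusted p = 0.0488), by the authors' deposited table. In SM over WT these stood at -0.68 for Osr2 (SE 0.27, adjusted p = 0.0662) and -0.57 for Irx1 (SE 0.23, adjusted p = 0.083), and in DM over SM at -0.35 for Osr2 (SE 0.28, adjusted p = 1) and -0.06 for Irx1 (SE 0.25, adjusted p = 1), by the authors' deposited tables. Pou3f3, an abundant tubule factor, did not pass, at -0.14 (SE 0.19) in SM over WT by the authors' deposited table.

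Of 12 genes of the embryonic renal stroma 1 rose in each comparison with WT, Aldh1a2, an enzyme that makes retinoic acid, which was at 38.6 CPM in SM, 28.7 CPM in DM and 9.64 CPM in WT kidneys, with adjusted p = 8.11e-12 in SM over WT and 1.93e-07 in DM over WT (where it rose by 1.57 on the log2 scale, SE 0.26) by the authors' deposited tables. Nr2f2 did not pass, at 0.08 (SE 0.26) in SM over WT by the authors' deposited table. Among 27 paralogs of the regulators, 17 of which averaged below 1 CPM, 1 fell in SM over WT and 3 fell in DM over WT, Osr2 among them, by the authors' deposited tables. Against the F distribution 0 paralogs were called in either comparison with WT, and adjusted over rows averaging 1 CPM or more 2 were called in SM over WT. Emx1, the paralog of Emx2, was at 15.4 CPM in SM, 20.4 CPM in DM and 35.8 CPM in WT kidneys, and fell by 1.22 on the log2 scale in SM over WT (SE 0.27, adjusted p = 1.27e-04) and by 0.82 in DM over WT (SE 0.26) by the authors' deposited tables. Sall3, the paralog of Sall1, fell by 1.25 in DM over WT (SE 0.42, adjusted p = 0.0279) and was at -0.97 in SM over WT (SE 0.42, adjusted p = 0.116) by the authors' deposited tables. Eya3 and Sall2 did not pass, at -0.03 (SE 0.20) and -0.27 (SE 0.24) in SM over WT by the authors' deposited table.

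Marker genes of other cell types and of tubular injury differed in the same comparisons, and their part in the values above was not tested. Pkd2 itself stood at -0.41 in SM over WT (SE 0.20, adjusted p = 0.179) and -0.49 in DM over WT (SE 0.20, adjusted p = 0.0838) by the authors' deposited tables, and the row named for the miR-21 gene stood at the lowest level and checks nothing. The calls that follow are over WT and from the authors' deposited tables, and the sums are of derived levels. Principal cell markers of the collecting duct, where the driver acts, rose for 6 of 8 in SM and 4 of 8 in DM, with sums of 1392 CPM in SM, 1253 CPM in DM and 899 CPM in WT kidneys. Proximal tubule markers fell for 8 of 10 in SM and 9 of 10 in DM, with sums of 6172 CPM in SM, 6565 CPM in DM and 14004 CPM in WT kidneys. Podocyte markers fell for 4 of 8 in SM and 4 of 8 in DM, with sums of 495 CPM in SM, 471 CPM in DM and 724 CPM in WT kidneys. Stromal markers rose for 5 of 8 in SM and 5 of 8 in DM, with sums of 2359 CPM in SM, 1970 CPM in DM and 803 CPM in WT kidneys. Tubular injury markers rose for 8 of 8 in SM and 8 of 8 in DM, and macrophage markers for 7 of 7 in SM and 6 of 7 in DM. Distal convoluted tubule markers fell for 5 of 7 in SM and 5 of 7 in DM, and thick ascending limb markers for 3 of 7 in SM and 3 of 7 in DM. Intercalated cell markers fell for 4 of 8 and rose for 1 in SM, and fell for 3 in DM. Endothelial markers were called for 0 of 8 in SM, where 2 had an unadjusted p under 0.05 by the test of edgeR, and fell for 4 of 8 in DM. Hepatocyte markers fell for 6 of 8 in SM, and fell for 5 and rose for 1 in DM, with sums of 94.96 CPM in SM, 120 CPM in DM and 282 CPM in WT kidneys. The genes of this list did not move alike, and those named here were chosen after their values were seen. Alb, the gene of serum albumin, was at 0.328 CPM in SM, 1.03 CPM in DM and 132 CPM in WT kidneys, and Ahsg, another liver-secreted protein gene, at 0.0818 CPM in SM, 0.209 CPM in DM and 27.7 CPM in WT kidneys. Ttr, Serpina1a and Fgb made up most of the sums in SM and DM. The list median was a log2 fold change of -8.44 in SM over WT and -6.08 in DM over WT by the authors' deposited tables. Which of the 4 wild types carried these transcripts cannot be told without values per mouse. Each listed marker of podocytes, of the collecting duct and of the 3 tubule segments listed averaged at least 1 CPM.

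Promoter windows from RefSeq (GRCm38.p6), 250 bases before to 50 after an annotated start, were at hand for 7 of the 10 genes in 12 windows, with none for Eya1, Osr1 and Ret. Their median GC content was 63.0% and their median number of CG dinucleotides 24.5, while all 32851 windows had 52.7% and 7. With both strands searched, the GC box GGGCGG was in 7 of the 12 windows and in 35.7% of all windows, and the box CCAAT in 6 of the 12 windows and in 37.4% of all windows. TATAAA was in 1 of the 12 (13.6% of all windows), the paired-domain core GTCACGC in 1 (2.09%), the STAT word TTCNNNGAA in 1 (8.30%) and the AP-1 word TGANTCA in 0 (7.81%). Windows of the same gene are not independent. The 250 bases before the start are shown for Pax8, the most abundant of the 10 in SM, and for the most upstream of the 3 Sall1 windows, since Sall1 was nearest to the threshold, with GC and CCAAT boxes of either strand in capitals (minus strand of chr2:24475600-24475849 and chr8:89044163-89044412, GRCm38).
Pax8: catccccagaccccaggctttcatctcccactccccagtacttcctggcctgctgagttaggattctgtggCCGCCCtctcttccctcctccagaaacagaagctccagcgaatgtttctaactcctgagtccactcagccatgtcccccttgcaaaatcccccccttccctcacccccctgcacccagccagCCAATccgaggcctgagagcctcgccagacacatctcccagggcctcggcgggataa
Sall1: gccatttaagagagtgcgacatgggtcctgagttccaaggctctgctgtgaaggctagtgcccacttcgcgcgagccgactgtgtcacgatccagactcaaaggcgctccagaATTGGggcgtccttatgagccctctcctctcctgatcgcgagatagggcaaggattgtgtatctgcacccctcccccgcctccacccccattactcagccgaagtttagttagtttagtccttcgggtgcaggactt
Pax8 had 1 GC box and 1 CCAAT box there, and Sall1 had 0 and 1. These are descriptions of letters in a window, from which nothing follows about any factor.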

How the data were processed

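Frozen kidneys gave total RNA, made into libraries with a stranded kit according to the labels. Tools credited to the submitters' processing notes, with no role stated for each, are edgeR 3.2.4, featureCounts from Subread 1.4.6, Cufflinks, TopHat2 2.0.12 and bcl2fastq 1.8.4, on mm10. The authors deposited 3 comparison tables of 30431 rows, 7155 of which are unnamed assembled loci. Per the file headers, columns deposited by the authors are the log2 fold change, the mean level as log2 CPM, the likelihood ratio score, and the p-value before and after adjustment. On checking, adjustment was Benjamini-Hochberg over all rows, and each p-value was the chi-square tail of its score. This deposited test replaced the planned count test, since the tables hold no counts per library. For the same reason DESeq2 and leaving out mice could not be run.

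The SE was obtained by dividing the size of the log2 fold change by the root of its score, and the script was tested on simulated data. That simulation held only levels of 1 CPM or more, with the same known spread and depth for every gene. It does not cover Six2, Eya1 and Gdnf, or genes less precise than others of their level, such as Pax2 and Sall1. Group levels were solved so that their mean over the 10 mice equals the deposited average, which includes a small offset that matters below 1 CPM. Genes named from a list were, per comparison, the 4 largest calls and the 2 most abundant others, of which some are not reported here. Spry1, Robo2, Jag1, Irx1, Gata3, Etv5, Wnt11, Spry2 and the genes named for an unadjusted p were added after their values were seen. Members and lists were chosen with earlier results of these data known. The labels give each mouse its own number and do not name litters. Positions and 3′ UTRs came from GENCODE M21 (GRCm38, which mm10 names). Scripts used Python 3.11.15, pandas 2.3.3 and scipy 1.17.1.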

Additional observations from a re-analysis of the deposited data

How the results depend on the processing

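Of 171 results of the 10 regulators under another setting, 171 kept their call, and the count of called regulators was 0 in each comparison under every setting run: a threshold of 0.01 or 0.10, adjustment over rows averaging 1 CPM or more or over named rows, an F reference with 7 residual degrees of freedom, and recentring. Since 0 were called to begin with, the threshold of 0.01 and the F reference could not change a call. Their share of the 171 results therefore says nothing about stability. Six2, Eya1 and Gdnf, below 1 CPM, have no value under the filter on level. Sall1 in DM over WT had the lowest adjusted p, which ranged from 0.0719 to 0.286, and from 0.102 to 0.33 in SM over WT. Of the 94 genes in related lists, 17 were called in SM over WT and 15 in DM over WT, which became 10 and 9 at a threshold of 0.01, and 3 and 2 with the F reference. That reference gives a larger p-value for the same score by its construction. No paired analysis was possible because the animal numbers are not shared between groups and the tables hold no value per mouse. Depth is unknown, so the precision of each gene rests on its SE.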
